A study of Mus musculus with 3 samples.

Results

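The genes described here encode the beta subunits and FXYD regulators of the sodium-potassium ATPase in the mouse cochlea. They are the 7 genes *Atp1b1*, *Atp1b2*, *Atp1b3*, *Fxyd1*, *Fxyd2*, *Fxyd6* and *Fxyd7*, taken by symbol from the 32285 genes counted, and all 7 had UMIs in every library. Cells were dissociated from the cochleae of C57/B6 mice (C57BL/6J in the study's methods) at postnatal day 14 (P14, 1 library) and postnatal day 28 (P28, 2 libraries, replicates 1 and 2). No treatment or transgene was used, each library pooled 14 cochleae from 7 mice, and the dissection took mainly the upper basal to apical turns. A library was made with the 10x Genomics 3′ method, in which 1 unique molecular identifier (UMI) stands for 1 captured RNA molecule of a barcoded cell.

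The sodium-potassium ATPase exports sodium and imports potassium at the cost of ATP. A catalytic alpha subunit is paired with a glycosylated beta subunit, which is needed for folding and delivery to the plasma membrane, and a small FXYD protein with a single membrane span tunes the affinity for ions. In the cochlea the pump supplies the potassium that marginal cells of the stria vascularis secrete into the endolymph, lets fibrocytes of the lateral wall take potassium back up, and restores ion gradients in firing neurons.

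After the limits of 200 to 6000 genes and at most 15% mitochondrial UMIs, 14378 cells were kept, 1662 from the P14 library and 5651 and 7065 from the P28 libraries. Median depth was 2477, 2421 and 2037 UMIs per cell, and the libraries shared 10, 20 and 54 of their called barcodes in pairs. Clusters were named "-like" from marker genes, which gave 15 classes with enough cells in at least 2 libraries. These were outer and inner hair cells (OHC, IHC), Deiters and pillar cells (DC/PC), inner phalangeal and border cells (IPhC/IB), inner sulcus, Hensen and outer sulcus cells (ISC/HeC/OSC), spiral ganglion neurons (SGN), Schwann and satellite glial cells (SC/SGC), spindle and root cells (SpC/RC), Reissner's membrane cells (RM), tympanic border cells (TBC), fibroblasts, fibrocytes, macrophages, B cells and red blood cells. A further 2082 cells (14.48%) stayed unnamed. Levels are in CPM, the UMIs of a gene divided by all UMIs of its class in that library and scaled to 1000000, and since only the 3′ end of each RNA is counted they do not scale with transcript length. Free RNA enters every droplet, so levels are set beside those in red blood cell-like cells as a reference. At P14 that cluster was led by the cycling genes *Mki67* and *Ube2c* as well as by haemoglobin genes, so the reference is not a measure of free RNA alone.

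The FXYD genes encode small proteins that share a signature that gives the family its name: proline, phenylalanine, any residue, tyrosine and aspartate. The coding bases around it are shown because they are where the 4 regulators can be compared directly. Each stretch has 45 coding bases of GRCm38 with the 15 bases of the signature codons in capitals, read 5′ to 3′ on the coding strand, and in each gene an exon junction follows base 28.
Fxyd1: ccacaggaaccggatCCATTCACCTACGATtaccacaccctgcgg
Fxyd2: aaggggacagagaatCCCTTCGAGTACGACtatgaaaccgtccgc
Fxyd6: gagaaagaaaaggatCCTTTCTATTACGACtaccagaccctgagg
Fxyd7: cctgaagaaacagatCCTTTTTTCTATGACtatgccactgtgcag
The stretches lie in exons 3 and 4 of *Fxyd1* (chr7:31053458-31053920, minus strand), exons 2 and 3 of *Fxyd2* (chr9:45408117-45408316, plus strand), exons 3 and 4 of *Fxyd6* (chr9:45390645-45390793, plus strand) and exons 2 and 3 of *Fxyd7* (chr7:31045011-31047400, minus strand). *Fxyd1* and *Fxyd6* were the closest, with 31 of 45 bases identical, and *Fxyd2* and *Fxyd7* the most distant with 22. The FXYD genes sit as neighbours on the chromosomes. *Fxyd1* (chr7:31051678-31057199) ends 210 bases before *Fxyd7* (chr7:31042513-31051467) begins on the same strand, and *Fxyd6* (chr9:45370185-45396159) ends 3509 bases before *Fxyd2* (chr9:45399669-45410278) begins, both on the plus strand. The beta subunit genes lie apart, *Atp1b1* at chr1:164437109-164458355, *Atp1b2* at chr11:69599736-69605942 and *Atp1b3* at chr9:96332655-96364442, all on the minus strand. The 3′ end of *Atp1b1* overlaps *Nme7* on the opposite strand.

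*Atp1b1*, which encodes the most widespread beta subunit, was highest in neurons among the 15 classes of the fit. It stood at 3993 and 3962 CPM in SGN-like cells of the P28 libraries (mean 3978 ± 21.8 SD, n = 2), 4.33 times the next of these classes, and the neurons neurons held 55.1% and 50.7% of all *Atp1b1* UMIs in 5.91% and 4.20% of the cells. The ISC/HeC/OSC-like epithelium followed with 1009 CPM in the P14 library, 821 CPM in P28 replicate 1 and 924 CPM in replicate 2. IHC-like cells were at 733, 926 and 1065 CPM in the same order of libraries. The ranges of these last classes overlapped, so their order is not resolved.
Levels then declined through SpC/RC-like (675 and 802 CPM) and IPhC/IB-like cells (665 and 666 CPM). OHC-like cells had 109.9, 190 and 226 CPM against 104.6, 99.5 and 201 CPM in red blood cell-like cells, so the ranges overlapped. The lowest class means were those of TBC-like (34.3 to 103.3 CPM) and fibrocyte-like cells (78.2 and 109 CPM), and the P14 SC/SGC-like class had 0 CPM where the P28 libraries had 268 and 183 CPM. RM-like cells varied between libraries, from 1026 CPM at P14 to 385 and 428 CPM in the P28 libraries.

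*Atp1b2*, whose product was first described as an adhesion molecule on glia, was highest among these classes in RM-like cells, the epithelium between scala media and scala vestibuli. Cells outside the fit, described further on, had more. It reached 732, 673 and 536 CPM there (647 ± 101 SD, n = 3), 2.54 times the next of the 15 classes and without overlap. OHC-like cells came next with 223, 276 and 266 CPM (255 ± 28.1 SD, n = 3), a range that overlapped fibrocyte-like cells at 258 and 218 CPM. The red blood cell-like reference was 3.38, 42.2 and 55.1 CPM, below all of these in its own library.
IHC-like cells had 15.8, 90.8 and 63.9 CPM, all below the OHC-like range. SGN-like cells had the lowest level at 9.64 and 16.6 CPM, the reverse of their place for *Atp1b1*.

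*Atp1b3*, the remaining beta isoform measured here, was high in connective tissue and glia. Fibrocyte-like cells were at 454 and 479 CPM and TBC-like cells at 369, 296 and 313 CPM. SC/SGC-like cells went from 147 CPM in the P14 library to 406 and 505 CPM in the P28 libraries. The first ranks overlapped, so no class of the fit stood above all others.
OHC-like cells were lowest with 33.8, 49.0 and 70.7 CPM. Those values were close to or below the red blood cell-like level of 97.9, 48.2 and 63.0 CPM.

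The share of each isoform among the beta subunit UMIs separated the classes into 3 kinds, with the proviso that capture may differ between genes. *Atp1b1* led in 8 of 15 classes, with 98.0% in SGN-like cells (97.8% to 98.2% over 2 libraries), 87.9% in ISC/HeC/OSC-like cells and 86.5% in IHC-like cells (82.5% to 91.6% over 3 libraries). The 8 included B cell-like cells (63.3%) and the red blood cell-like reference itself (55.4%). The part of free RNA in these shares was not tested. *Atp1b2* led in OHC-like cells at 53.9% (47.2% to 60.8%) and in RM-like cells at 50.2%. *Atp1b3* led in TBC-like (59.0%), fibrocyte-like (58.4%), SC/SGC-like (56.4%), macrophage-like (51.1%) and fibroblast-like cells (43.4%). DC/PC-like cells were split, with 38.5% *Atp1b1* and 37.6% *Atp1b2*. Without P28 replicate 1 the leading isoform of RM-like cells became *Atp1b1*, and without P28 replicate 2 that of DC/PC-like cells became *Atp1b2*.

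**Figure D1:**
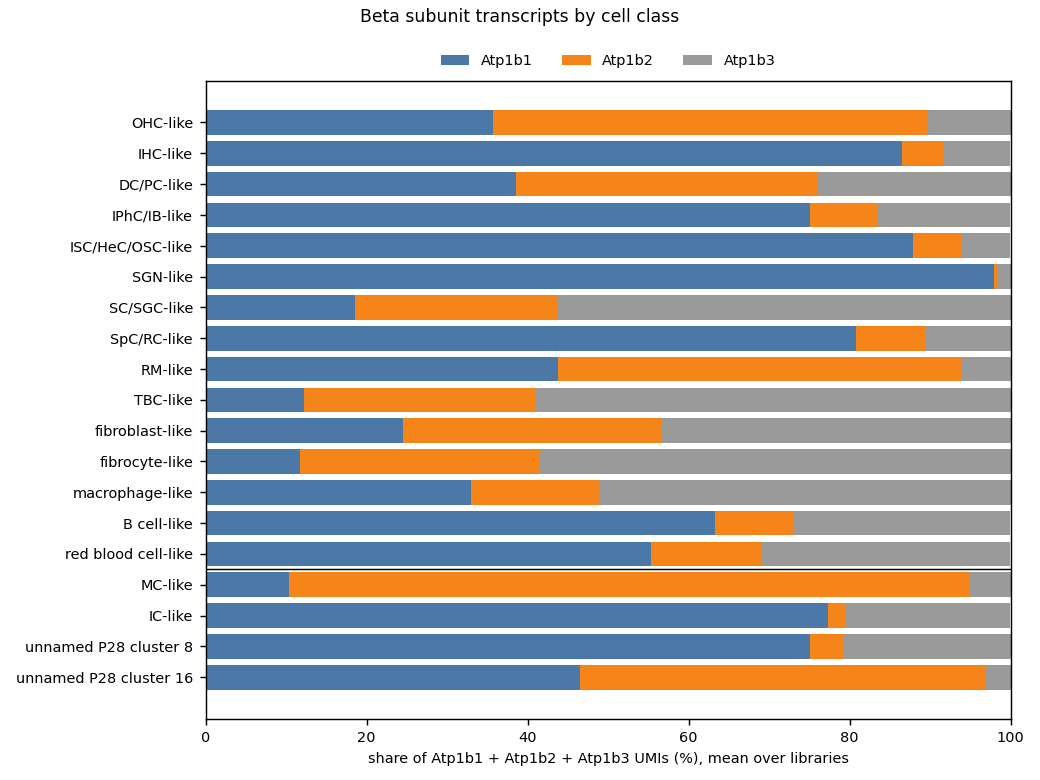
Share of *Atp1b1*, *Atp1b2* and *Atp1b3* in the beta subunit UMIs of each class (percent, stacked bars, mean over libraries). Classes under the line were outside the fit and come from P28 only. SGN-like cells are almost wholly *Atp1b1* (98.0%), the MC-like cluster 84.5% *Atp1b2*, and fibrocyte-like cells 58.4% *Atp1b3*.

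*Fxyd1* encodes phospholemman, a kinase-regulated inhibitor of the pump. It was high in SpC/RC-like cells (474 and 421 CPM), in fibroblast-like cells (275.5, 366 and 344 CPM) and in TBC-like cells (202, 323 and 297 CPM). SC/SGC-like cells had 0 CPM at P14, where 27 cells entered, and 784 and 505 CPM at P28. Sensory cells and neurons were at the other end, with at most 23.1 CPM in OHC-like, 15.1 CPM in IHC-like and 14.2 CPM in SGN-like cells. In red blood cell-like cells it was 6.75 CPM at P14, and 93.4 and 90.6 CPM in the P28 libraries, so the P28 values of these classes lay below that level.

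*Fxyd6* encodes phosphohippolin, a regulator known from the brain and the inner ear. At P28 the highest of the 15 classes was SC/SGC-like cells at 2256 and 1826 CPM, against 80.0 CPM in the P14 library. The P14 cluster of that name had *Mbp*, *Mobp*, *Mog* and *Mag* among its leading genes, the P28 cells *Cldn19* and *Prx*. *Mobp* and *Mog* are known from central myelin and *Prx* from peripheral myelin, so the name may cover unlike cells at the 2 ages. The part of this difference in the levels was not tested. SpC/RC-like cells had 1252 and 964 CPM and ISC/HeC/OSC-like cells 171 CPM at P14, with 851 and 869 CPM in the P28 libraries.
Within the P28 ISC/HeC/OSC-like class the level differed between clusters. It was 2245 and 2776 CPM in cluster 22, 1136 and 881 CPM in cluster 2, and 463 to 515 CPM in clusters 7 and 17. OHC-like cells had 1.07, 61.8 and 75.7 CPM and SGN-like cells 67.8 and 79.9 CPM, all below the red blood cell-like reference of 10.1, 202 and 191 CPM.

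*Fxyd2* encodes the gamma subunit, first known from the kidney. In the 15 classes of the fit it was low, and most of its UMIs (166 at P14, 7351 and 9382 in the P28 libraries) came from elsewhere. The exception was the P14 IHC-like class with 206 CPM, against 13.4 and 18.5 CPM at P28. There 24 of 60 cells (40%, median depth 1026 UMIs) had a UMI and no cell more than 5, against 1 of 50 red blood cell-like cells (2%, median depth 4982 UMIs). Thinned to 1000 UMIs per cell, with 31 of the P14 cells deep enough, the share was 25.8% at P14 and 1.01% and 1.39% at P28.
Among OHC-like cells the level was 0.536 CPM at P14, then 51.0 and 102.4 CPM in the P28 libraries. These P28 values came from very few cells: 109 of 123 UMIs lay in 1 cell of replicate 1, and 127 of 142 UMIs in 5 cells of replicate 2. The other classes lay between 0 and 77.2 CPM in any library, around the red blood cell-like level of 33.2 and 51.2 CPM at P28.

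*Fxyd7*, a regulator known from brain, was scarce, with 4, 88 and 94 UMIs in the libraries. SpC/RC-like cells were at 21.3 and 12.5 CPM and SC/SGC-like cells at 20.6 and 21.5 CPM at P28, the latter from 3 and 2 UMIs. No UMI fell in macrophage-like, B cell-like or red blood cell-like cells, and a count of 0 allows up to 3 UMIs per class and library. Its UMIs were 0.756%, 2.18% and 2.19% of those of its upstream neighbour *Fxyd1*, and 2.97% to 4.96% in SpC/RC-like and P28 ISC/HeC/OSC-like cells. Whether transcripts that run on from *Fxyd1* add to them was not tested.

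**Figure D2:**
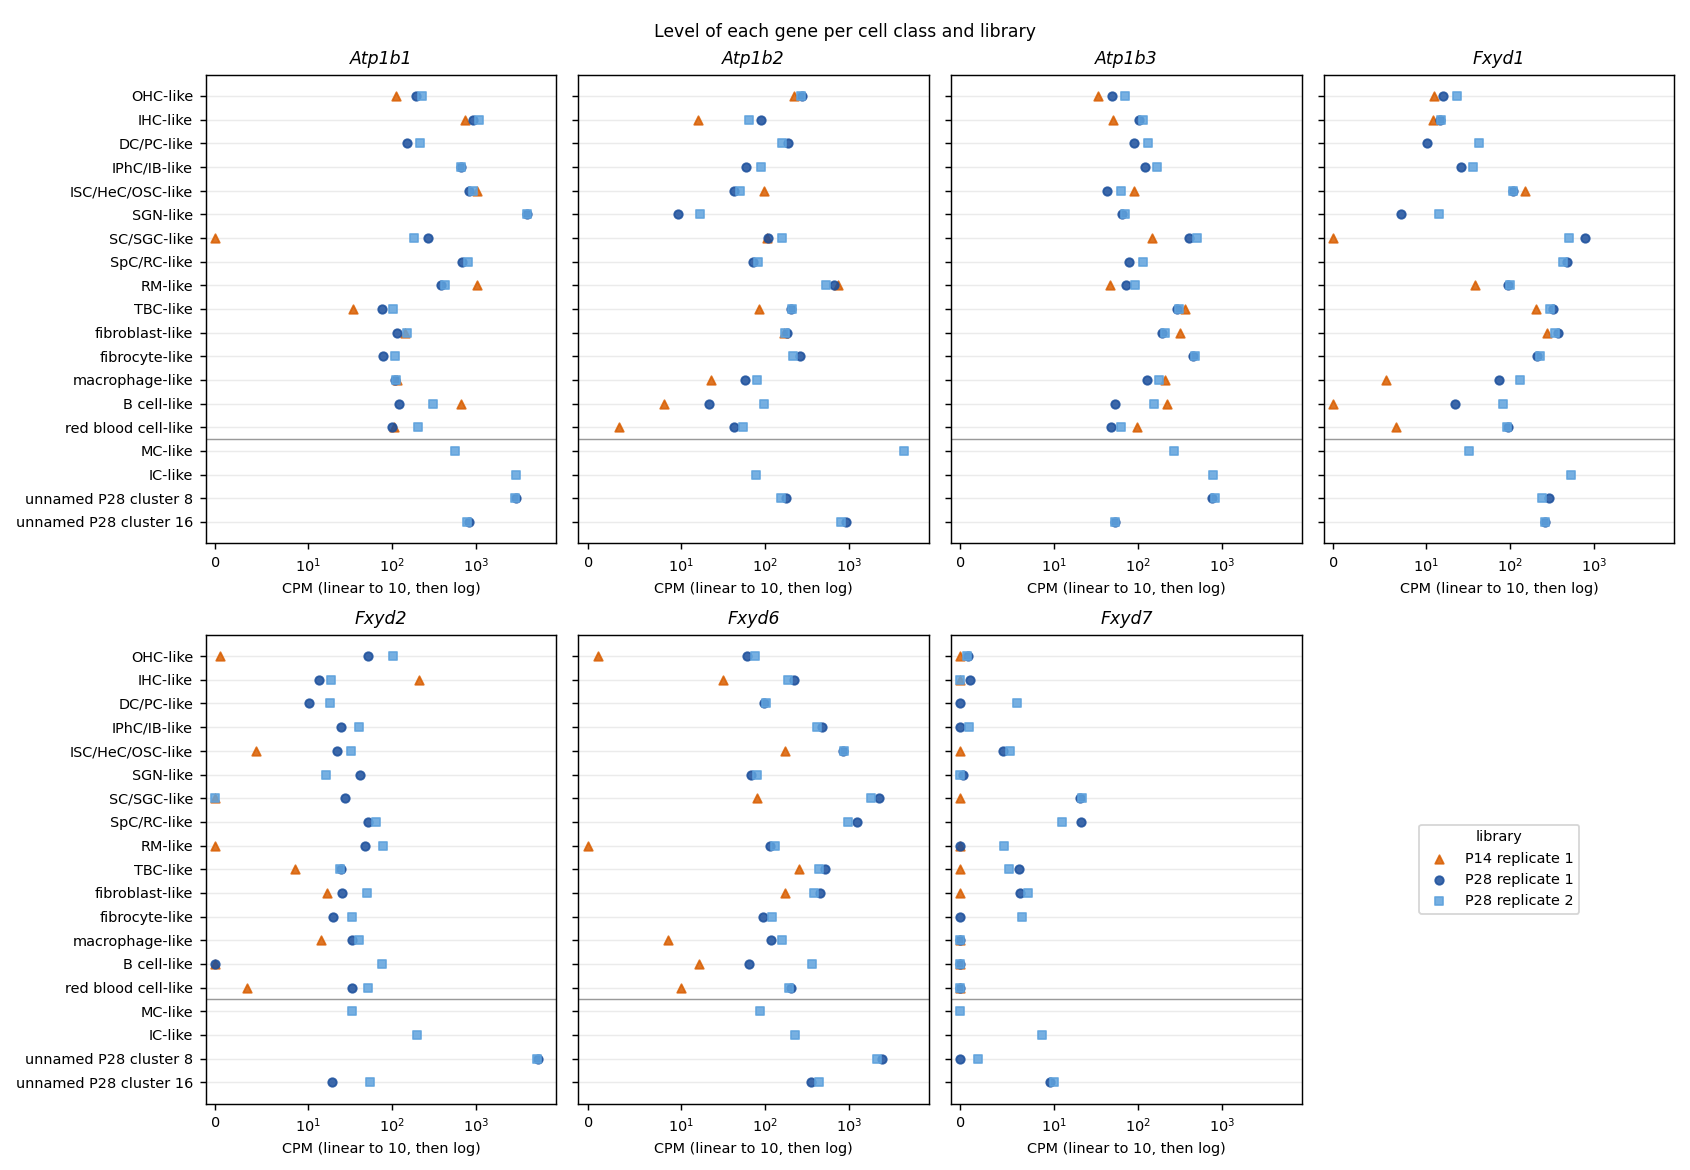
Level of each gene (CPM, linear to 10 and logarithmic above) per class in each library, with P14 as triangles, P28 replicate 1 as circles and P28 replicate 2 as squares, and classes outside the fit under the line. *Atp1b1* peaks in SGN-like cells near 3978 CPM, *Atp1b2* in the MC-like cluster at 4520 CPM, and *Fxyd2* in the unnamed P28 cluster 8 at 5481 and 5312 CPM.

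To test which classes differed, UMIs were summed per class and library and fitted in 1 edgeR quasi-likelihood model with a term for the library. It held 40 sums and 12894 genes, and all 7 genes passed the expression filter. Each class was set against the mean of the other classes at an adjusted p of 0.05. Of the 105 gene-class pairs 30 (28.6%) were higher and 21 (20%) lower, where 17.7% and 8.02% of the pairs over all genes tested were called. The counts rest on few libraries: without P28 replicate 1 they were 11 and 5, without P28 replicate 2 they were 18 and 5 of 90 pairs, and without P14 they were 38 and 32. The shares over all genes with a library left out are not given here. *Fxyd1* was called in the most classes (6 higher, 5 lower), and *Fxyd2* in none.
In SGN-like cells 1 gene of 7 was higher and 4 were lower, against 34.2% and 24.5% of all genes. *Atp1b1* was higher by 3.72 ± 0.27 (log2 difference ± SE, edgeR adjusted p = 8.23e-15), while *Atp1b2* fell by 3.40 ± 0.47 (adjusted p = 6.06e-08), *Fxyd1* by 3.39 ± 0.58 and *Fxyd6* by 2.17 ± 0.51. RM-like cells were higher in *Atp1b2* alone, by 2.71 ± 0.25 (edgeR adjusted p = 2.22e-11), where 15.0% of all genes were higher. They were lower in *Atp1b3* by 1.05 ± 0.27 (edgeR adjusted p = 0.0038) and in *Fxyd6* by 1.49 ± 0.47 (edgeR adjusted p = 0.0184). The connective tissue classes of the fit were higher in *Atp1b3*, by 1.80 ± 0.24 in fibrocyte-like cells (edgeR adjusted p = 4.26e-07) and 1.44 ± 0.20 in TBC-like cells, and lower in *Atp1b1*. The unnamed P28 cluster 8, which expressed fibrocyte markers and is described further on, was outside this fit. Entered as a class, it was higher in *Atp1b1* by 3.22 ± 0.26. Fibrocyte-like cells had 2 of 7 genes higher and 1 lower (9.57% and 2.09% of all genes), and TBC-like cells 5 and 1 (25.1% and 11.1%). In 5 classes *Fxyd1*, *Fxyd6* and *Fxyd7* were all higher, namely SpC/RC-like, SC/SGC-like, TBC-like, fibroblast-like and ISC/HeC/OSC-like cells. Of these 15 calls 10 were lost without P28 replicate 1, and 8 in separate fits against all other cells of the library, where *Fxyd6* was at −0.011 in TBC-like and −0.36 in fibroblast-like cells. Without P28 replicate 2, and with 200 to 3000 genes and at most 15000 UMIs, only 10 of the 15 pairs were tested. *Fxyd7* dropped out of those fits, so its 5 calls could not be checked there. With the unnamed clusters entered as classes *Fxyd6* was not called in fibroblast-like cells (edgeR adjusted p = 0.0578), and *Fxyd1* in SC/SGC-like cells had 2 of 3 libraries in its direction. Of the 7 genes 4 were higher in SpC/RC-like (10.1% of all genes), SC/SGC-like (7.02%) and ISC/HeC/OSC-like cells (24.0%), and 5 in fibroblast-like cells (22.6%). For SpC/RC-like cells the differences of *Fxyd1*, *Fxyd6* and *Fxyd7* were 2.44 ± 0.37, 2.08 ± 0.35 and 3.67 ± 0.78 (edgeR adjusted p = 3.57e-06, 2.56e-05 and 0.00137). *Fxyd7* rested on 7 and 6 UMIs there, and in SC/SGC-like cells on 3 and 2 at P28 and 0 at P14. No other class of the fit exceeded 7.26 CPM of *Fxyd7*, which passed the expression filter through these classes. Its calls as higher in them therefore cannot be read apart from the filter. Red blood cell-like cells were themselves called higher in *Fxyd1*, by 1.40 ± 0.45 (edgeR adjusted p = 0.038) with 2 of 3 libraries in that direction and 9.81% of all genes higher, although that class served as the reference above.

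The comparison of the hair cell types asked whether transcripts of these genes differ between the electromotile outer and the synapse-bearing inner hair cells. Among the beta subunit genes, *Atp1b1* and *Atp1b2* did. From OHC-like to IHC-like cells *Atp1b2* gave way to *Atp1b1*: *Atp1b2* was higher in OHC-like cells by 2.34 ± 0.42 (log2 difference ± SE, edgeR adjusted p = 4.17e-05) and *Atp1b1* lower, with a difference of −2.14 ± 0.45 (adjusted p = 0.000283), each in 3 of 3 libraries. *Fxyd6* was lower in OHC-like cells, −1.69 ± 0.54 (edgeR adjusted p = 0.0158). For this gene OHC-like cells lay below the red blood cell-like reference in each library, while IHC-like cells were above it at P14 and near it at P28. The P14 values rest on 2 UMIs in OHC-like, 8 in IHC-like and 3 in red blood cell-like cells, so their order is not resolved. In all, 1 of 7 genes was higher and 2 were lower, where 13.6% and 13.4% of all genes tested were.
*Atp1b3* (−0.68 ± 0.32, adjusted p = 0.12), *Fxyd1* (0.65 ± 0.73) and *Fxyd2* (0.01 ± 0.72) did not pass. The median of the 7 differences was 0.01, beside 0.14 over all genes. Without P28 replicate 1, or without P28 replicate 2, only *Atp1b2* passed, with *Atp1b1* at −2.22 (adjusted p = 0.094) and −2.26 (adjusted p = 0.082). Without the library term *Fxyd6* did not pass (adjusted p = 0.32).

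Hair cells, taken as the mean of both types, were then set against the supporting cells of the epithelium (DC/PC-like, IPhC/IB-like and ISC/HeC/OSC-like). Lower in hair cells were *Fxyd6* at −1.88 ± 0.37 (log2 difference ± SE, edgeR adjusted p = 7.39e-05), *Fxyd1* at −1.51 ± 0.53 (adjusted p = 0.0185) and *Atp1b3* at −0.68 ± 0.22 (adjusted p = 0.0131). So 3 of 7 genes were lower and 0 higher, where 21.6% of all genes were lower and 20.8% higher. *Atp1b1* (−0.40 ± 0.31) and *Atp1b2* (0.38 ± 0.29) did not pass in this mean of hair cells that differ in opposite senses for these genes. The median of the 7 was −0.68, beside −0.06 over all genes. The supporting cell classes were not alike. *Fxyd1* was at 106.6 to 150.9 CPM in ISC/HeC/OSC-like cells, but at 10.1 to 42.5 CPM in DC/PC-like and 25.9 to 35.8 CPM in IPhC/IB-like cells. *Fxyd6* had a lower mean in DC/PC-like cells (100.6 CPM) than in IHC-like cells (147.2 CPM). For *Atp1b3*, ISC/HeC/OSC-like cells (43.5 to 89.4 CPM) overlapped IHC-like cells (51.5 to 116 CPM). Without either P28 library only *Fxyd6* passed, as it did under the narrower cell limits of the study's methods.

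Neurons and the glia that ensheath them differed in 6 of the 7 genes. In SGN-like against SC/SGC-like cells *Atp1b1* was higher by 4.61 ± 0.55 (log2 difference ± SE, edgeR adjusted p = 2.15e-08). The other beta subunits were lower, *Atp1b2* at −3.35 ± 0.61 (adjusted p = 4.04e-05) and *Atp1b3* at −2.36 ± 0.38 (adjusted p = 4.58e-06). So were *Fxyd1* at −5.53 ± 0.70 (edgeR adjusted p = 6.68e-08), *Fxyd6* at −4.49 ± 0.65 and *Fxyd7* at −6.22 ± 1.39, the last from so few UMIs that its size depends on the fit. *Fxyd7* also passed the expression filter through SC/SGC-like and SpC/RC-like cells, so its call cannot be read apart from the filter. In all, 1 gene of 7 was higher and 5 lower, against 18.8% and 15.9% of all genes. The median of the 7 was −3.35, beside 0.20 over all genes. The SC/SGC-like class of the fit included the P14 cells, which were led by other myelin genes. Both P28 libraries showed each direction, the P14 library had no SGN-like class, and without P28 replicate 1 only *Atp1b1*, *Fxyd1* and *Fxyd6* passed.

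**Figure D3:**
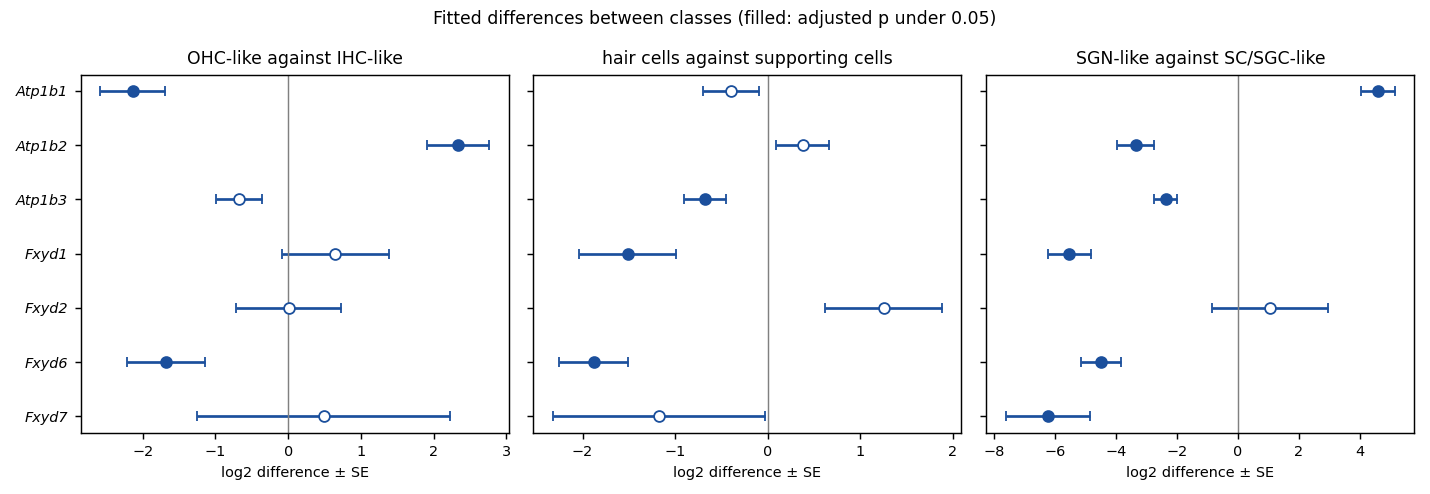
Fitted log2 differences with standard errors (edgeR) for the 7 genes in the 3 comparisons, with filled points where the adjusted p is under 0.05. *Atp1b1* and *Atp1b2* lie on opposite sides of 0 between OHC-like and IHC-like cells (−2.14 and 2.34), and in SGN-like cells *Atp1b1* alone is higher than in SC/SGC-like cells (4.61).

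A list of 17 genes of related function gives the setting, of which 13 were tested. It includes other FXYD and beta family genes, the Nkain proteins that bind the beta subunit, cation-chloride cotransporters (Slc12), sodium-calcium exchangers (Slc8), the bicarbonate cotransporter *Slc4a7* and *Sgk1*, a kinase that raises sodium transport. Over the classes 39 of 195 pairs (20%) were higher and 14 (7.18%) lower, close to the shares over all genes. Between the hair cell types 2 of 13 were higher in OHC-like cells and 3 lower, where 13.6% and 13.4% of all genes tested were. *Slc8a2*, an exchanger that uses the sodium gradient to expel calcium, reached 171, 403 and 369 CPM in OHC-like cells where IHC-like cells had 59.4, 60.9 and 70.6 CPM (2.60 ± 0.26, edgeR adjusted p = 2.25e-09). *Slc8a1* was higher by 1.12 ± 0.33 (adjusted p = 0.0105), though in only 2 of 3 libraries. Lower were *Slc12a7*, a potassium-chloride cotransporter (−2.59 ± 0.43), *Nkain2* (−2.74 ± 0.47) and *Sgk1* (−2.16 ± 0.35).
Against supporting cells, hair cells were higher in *Slc8a2* (5.84 ± 0.32), *Slc8a1* (5.44 ± 0.50) and *Nkain2* (5.36 ± 0.71) and lower in *Slc12a7* (−1.31 ± 0.29) and *Sgk1* (−1.11 ± 0.25). SGN-like cells were higher than SC/SGC-like cells in 5 of 13, among them *Slc8a1*, *Slc12a7* (2.59 ± 0.60) and *Slc4a7* (2.41 ± 0.69), and lower in *Fxyd3* (−5.49 ± 0.92), *Slc12a2* (−3.11 ± 0.49) and *Sgk1* (−1.25 ± 0.41). Of all genes tested there, 18.8% were higher and 15.9% lower. *Fxyd3*, another family member, reached 729 and 429.7 CPM in P28 SC/SGC-like cells against 6.43 and 11.7 CPM in SGN-like cells.

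The highest levels of several of these genes lay in cells outside the 15 classes. The unnamed P28 cluster 8 (235 and 358 cells, led by *Slc6a7*, *Kcnk2* and *Plin4*) had 5481 and 5312 CPM of *Fxyd2*, and held 90.5% of that gene's UMIs in each P28 library in 4.16% and 5.07% of the cells. A UMI was found in 151 of 235 and 202 of 358 of its cells (median depths 2569 and 3082 UMIs), against 5 of 84 and 13 of 191 red blood cell-like cells (median depths 3648 and 2595 UMIs). The same cells had 2970 and 2871 CPM of *Atp1b1*, 776 and 832 CPM of *Atp1b3*, 2450 and 2183 CPM of *Fxyd6* and 287 and 238 CPM of *Fxyd1*, so 5 of the 7 genes were abundant in them. *Fxyd2* did not follow its neighbour *Fxyd6* in general, since SC/SGC-like cells, at 2256 and 1826 CPM of *Fxyd6*, had 27.5 and 0 CPM of *Fxyd2*.
Cluster 8 expressed the 5 fibrocyte markers of the list, among them *Coch* (3196 and 2838 CPM) and *Otos* (9367 and 6745 CPM), while the intermediate cell gene *Tyrp1* (57.7 and 46.9 CPM) was among its leading genes, and it therefore stayed unnamed. Other intermediate cell genes were low or uneven there, with *Dct* at 0 and 72.6 CPM, *Pmel* at 0.824 and 0 CPM, *Mlana* at 0 and 9.38 CPM and *Kcnj10* at 1.65 and 13.1 CPM. At a clustering resolution of 2 it divided. A larger piece of 176 and 248 cells (median depths 4294 and 4879 UMIs) had 5837 and 5827 CPM of *Fxyd2*, and a fibrocyte-like piece of 58 and 109 cells (median depths 983.5 and 1101 UMIs) had 494 and 112 CPM. When the unnamed P28 clusters were entered as classes of their own, an alternative chosen after the levels were seen, cluster 8 was higher than the mean of the others in *Fxyd2* by 7.31 ± 0.35 (log2 difference ± SE, edgeR adjusted p = 1.05e-20), *Atp1b1* by 3.22 ± 0.26, *Fxyd6* by 3.05 ± 0.29, *Atp1b3* by 2.60 ± 0.19 and *Fxyd1* by 1.41 ± 0.34. These differences describe a cluster that was built from the same cells.

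The stria vascularis was represented by few cells, nearly all in P28 replicate 2. The marginal cell-like (MC-like) cluster of 21 cells had 4520 CPM of *Atp1b2*, with a UMI in 21 of 21 cells (median depth 4521 UMIs) and 415 UMIs in all, against 24 of 191 red blood cell-like cells (12.6%, median depth 2595 UMIs). It held 10.8% of the library's *Atp1b2* UMIs in 0.297% of its cells, and *Atp1b2* made up 84.5% of its beta subunit UMIs (95% exact binomial interval 81.0% to 87.6%, for counting error only). It also had 8495 CPM of *Slc12a2*, the cotransporter that loads marginal cells with potassium. The intermediate cell-like (IC-like) cluster of 160 cells used the other isoforms, with 2947 CPM of *Atp1b1* (77.4% of its beta subunit UMIs), 782 CPM of *Atp1b3* and 533 CPM of *Fxyd1*. Its *Fxyd2* level of 196 CPM rested on 1 cell with 43 of 67 UMIs. No other library backs these values.

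With 1 library at P14 the ages could be compared only by size. A pair of gene and class was counted where P14 was at least 2-fold above or below both P28 libraries and the higher level was at least 100 CPM. Of 70 pairs in 10 classes 33 reached that level. Among these 3 (9.09%) were higher at P14 and 12 (36.4%) lower, where 15.9% and 10.6% of the gene-class pairs over all genes at that level were. The 12 became 20 without mitochondrial, ribosomal protein and haemoglobin genes in the totals and 7 of 56 pairs under the narrower cell limits, and the 3 became 1 with at most 30% mitochondrial UMIs. *Fxyd6* accounted for 7 of the 12, in IHC-like, ISC/HeC/OSC-like, RM-like, SC/SGC-like, fibroblast-like, macrophage-like and red blood cell-like cells. The last of these had 10.1 CPM at P14 against 202 and 191 CPM at P28 and the macrophages 8.57 CPM against 116 and 161 CPM, so the reference level itself was higher in the P28 libraries. At P14 each of these classes had 3 *Fxyd6* UMIs, and the red blood cell-like cluster was led in part by cycling genes. Its cells may therefore be unlike those at P28, and the part of the reference in the other classes was not tested. In IHC-like cells the change was from 31.7 to 219.8 and 190 CPM, close to the reference at P28.
In ISC/HeC/OSC-like cells *Fxyd6* went from 171 to 851 and 869 CPM, which exceeds the reference at P28. That class held cluster 3 alone at P14, however, and the P14 clusters 1 and 4, which stayed unnamed, had 812 and 1214 CPM.
*Fxyd2* in IHC-like cells was 15.4 and 11.1 times higher at P14 than in the P28 libraries. The other pairs higher at P14 were *Atp1b1* in RM-like cells and in B cell-like cells (658 CPM against 119.6 and 306 CPM). The B cell-like values rested on few UMIs, 80 in 66 cells at P14 and 11 in 27 and 41 in 40 cells at P28. Of the 41, 25 lay in 5 cells. SC/SGC-like cells were lower at P14 in *Atp1b1*, *Atp1b3* and *Fxyd1* as well as *Fxyd6*, with the change in leading myelin genes given above. These pairs may therefore set unlike cells of the same name side by side, which was not tested. *Atp1b1* and *Atp1b2* of OHC-like cells were not among the 15, at 109.9 against 190 and 226 CPM and at 223 against 276 and 266 CPM.

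**Figure D4:**
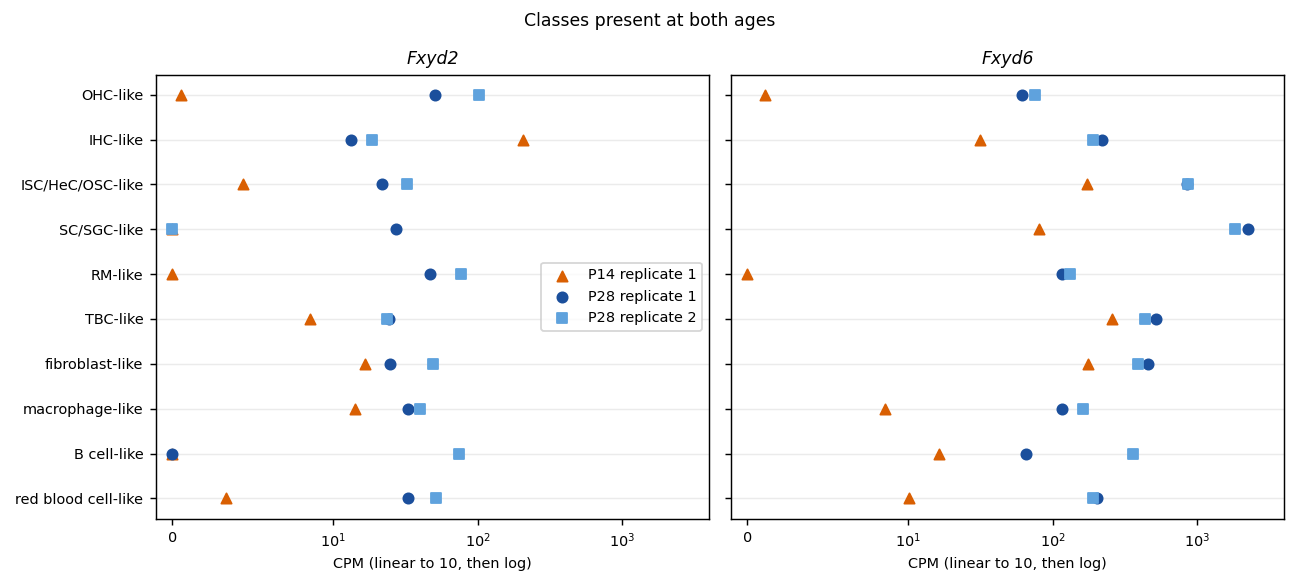
Level of *Fxyd2* and *Fxyd6* (CPM, linear to 10 and logarithmic above) in the 10 classes found in all 3 libraries, with P14 as triangles and the P28 replicates as circles and squares. *Fxyd2* is higher at P14 in IHC-like cells alone (206 CPM), while *Fxyd6* is lower at P14 in all 10 classes, red blood cell-like cells included.

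For each gene, the genes with the most similar pattern over the 15 class means were found by the correlation of log2(CPM + 10), among 5188 genes. The class means share libraries and depth, so the values only describe. *Atp1b1* was most like *Tmem229b* (r = 0.87) and *Fkbp4* (0.86). *Atp1b2* was nearest to *Pttg1ip* (0.89), *Trp53bp2* (0.85) and *mt-Nd6* (0.78). *Atp1b3* was nearest to *Zcchc24* (0.92), *Gpm6b* (0.91) and *Slc1a2* (0.91), of which the last 2 are known from glia.
*Fxyd1* was most like *Rapgef3* (0.89), *Fxyd6* most like *Cd200* (0.82), and *Fxyd7* most like *Mpzl1* (0.86). *Fxyd2* had a weaker series, led by *Irak1* (0.83) and then *Med28* (0.72).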

How the data were processed

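The authors deposited a matrix of unnormalized UMI counts for each library, by gene and barcode, which Cell Ranger made (5.0.1 per the file headers, 6.0.1 in the submitters' processing notes, on mm10) and which carry no normalization or cell filter beyond its cell calling. Everything else was computed from these counts. The members, gene lists and tests were chosen with earlier results of these data known. The catalytic alpha subunit genes were not analysed here.

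Kept barcodes had 200 to 6000 genes and at most 15% mitochondrial UMIs, which was 66.1% of the called barcodes at P14 and 47.3% and 38.8% at P28. The P14 cells, and the P28 libraries after anchor integration, were clustered in Seurat 5.3.0 (30 principal components, resolution 1) on 2000 variable genes without the 24 genes of the lists described here. A cluster was named from at least 3 markers that exceeded the median cluster by a log2 ratio of 1 and were found in 5% of its cells, and stayed unnamed where leading genes went against the name. This naming rule was set after the clusters, though not the levels of the genes reported, had been seen. Scrublet called at most 0.12% of cells, so it did not work here, and no doublet was removed. The main analysis instead has an alternative without the 5% of cells with the highest scores.

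UMIs were summed per class and library for classes with at least 10 cells in 2 or more libraries. The sums were fitted in edgeR 4.0.16 (R 4.3.3) by the quasi-likelihood test with TMM normalization, the default expression filter and terms for class and library (23 residual degrees of freedom), with Benjamini-Hochberg adjustment over all 12894 genes of a comparison and a threshold of 0.05. Each library pools 7 mice. The p-values measure the spread of the sums around the class and library terms, pooled over the classes. The 40 sums come from the same 3 pools of mice at 2 ages, so they are not independent samples. The classes of a library come from the same mice, which pairs them. Deviations from class means correlated by 0.47, 0.33 and 0.30 between OHC-like and IHC-like cells and by −0.00033 and 0.033 between SGN-like and SC/SGC-like cells. The former values hold age as well as library. The latter cannot show whether the sums are paired. With 2 SGN-like libraries the deviations mirror each other, and the SC/SGC-like mean includes the P14 cells. Between ages no test was made. Depth was 7432047, 24596587 and 23300859 UMIs in kept cells, intervals cover counting error only, and a count of 0 was taken to allow 3 UMIs.

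Named genes were the 7 members in all classes, listed partners called in a comparison of 2 cell types, and the 3 genes with the most similar pattern among those of at least 100 CPM in a class. A few genes that this rule names are not reported here. Coordinates and coding sequence come from GENCODE M21 on GRCm38 (mm10). The tests were checked on simulated counts first. Alternatives were DESeq2 1.42.0, RLE normalization, no expression filter, no replicate block, separate fits, joint adjustment, other cell limits, resolution 2, gene classes left out of the totals, thinning to 1000 UMIs, a 1.5-fold limit between ages and each library left out. Other tools were Python 3.11.15, numpy 2.4.6, pandas 2.3.3, scipy 1.17.1 and matplotlib 3.10.9.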

Additional observations from a re-analysis of the deposited data

Results flagged for a closer look

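The difference between OHC-like and IHC-like cells in *Fxyd2* was −4.36 at P14 on the log2(CPM + 10) scale and 1.38 and 1.98 in the P28 libraries, so the P14 library pointed the other way. The positive P28 values rest on the few OHC-like cells described above. The difference between hair cells and supporting cells in *Atp1b2* was −0.479 at P14 and 0.92 and 0.50 at P28, and at P14 the ISC/HeC/OSC-like class was the sole supporting cell class. Neither difference between ages was tested.

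Several levels in cells outside the comparisons exceeded every class of the same library within them. In the unnamed P28 cluster 8, *Fxyd2* was at 5481 and 5312 CPM where no class exceeded 51.7 and 102.4 CPM, *Fxyd6* at 2450 and 2183 CPM against 2256 and 1826 CPM, and *Atp1b3* at 776 and 832 CPM against 454 and 505 CPM. *Atp1b2* was at 4520 CPM in the MC-like cluster, against 536 CPM in the highest class of that library. It was also at 927 and 811 CPM in the unnamed P28 cluster 16, led by *Bpifb3* and *Enpep*, against 673 and 536 CPM. With at most 30% mitochondrial UMIs, 231 of the 234 cells of cluster 16 (98.7%) were named RM-like. At resolution 2 all of them stayed unnamed. They may therefore not be a cell type apart from the RM-like class, which was not tested. In the IC-like cluster *Atp1b3* was at 782 CPM and *Fxyd1* at 533 CPM, each against 505 CPM, and *Fxyd2* at 196 CPM against 102.4 CPM.

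At P14, *Fxyd6* was at 812, 358 and 1214 CPM in the unnamed clusters 1, 2 and 4, against 257 CPM in the highest named class. *Atp1b3* was at 556.5 and 546 CPM in the unnamed clusters 6 and 7, against 369 CPM.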

How the results depend on the processing

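The counts of members called depended most on the P28 libraries. For the class counts under the alternatives the shares over all genes are not given here, so a shift in them is not read as particular to these genes. Leaving out each library in turn gave 11 to 38 pairs higher than the mean of other classes (30 with all libraries) and 5 to 32 lower (21), 1 to 5 genes between OHC-like and IHC-like cells (3), 1 to 5 between hair cells and supporting cells (3), and 3 to 6 between SGN-like and SC/SGC-like cells (6). When each class was set against all other cells of its library in separate fits, 13 pairs were higher and 55 lower, and 5 genes passed between hair cells and supporting cells. In those fits *Atp1b1* changed sign in IPhC/IB-like (−0.57) and SpC/RC-like cells (−0.46) and *Fxyd6* in TBC-like (−0.011) and fibroblast-like cells (−0.36), and the cause was not tested. With 200 to 3000 genes and at most 15000 UMIs, 1 gene passed between hair cells and supporting cells, *Fxyd6* did not pass between the hair cell types (edgeR adjusted p = 0.596) nor *Atp1b2* between SGN-like and SC/SGC-like cells (0.0662), and without the highest doublet scores 5 passed between the hair cell types.

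Without the library term (no replicate block, so that the pairing was ignored) 23 pairs were higher and 15 lower, and 2, 3 and 6 genes passed in the comparisons of cell types. The block changed the call of *Fxyd6* between the hair cell types and no other call there.

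*Fxyd2* between OHC-like and IHC-like cells (0.01) had no stable sign: it was −1.91 with 200 to 3000 genes, −0.28 with at most 30% mitochondrial UMIs, −0.017 at resolution 2, −3.05 without the highest doublet scores (edgeR adjusted p = 0.0067), −0.10 with RLE, −0.076 without the expression filter, −2.37 with DESeq2, −0.011 without the block, −0.77 with the unnamed clusters entered, and −2.67 and −2.87 without either P28 library. Without P14 it was 2.41 (edgeR adjusted p = 2.7e-06). That value rests on very few OHC-like cells: 1 cell held 109 of 123 UMIs in P28 replicate 1, and 5 cells held 127 of 142 in replicate 2.

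The scaling shifted all genes. Between the hair cell types 50.4% of all calls were higher in OHC-like cells with TMM, 40.5% with RLE and 40.3% with DESeq2, and the median difference of all genes was 0.14, 0.02 and 0. Between SGN-like and SC/SGC-like cells the shares were 54.2%, 49.6% and 40.6%, with medians of 0.20, 0.08 and −0.06. Counts by DESeq2 were 26 pairs higher and 22 lower. By direction, pairs higher at P14 fell from 3 to 1 with at most 30% mitochondrial UMIs, and pairs lower at P14 went from 12 to 20 with gene classes left out of the totals and to 7 with 200 to 3000 genes; the cause was not tested. The summed counts between ages (10 to 22, 15 as reported), of pairs at 100 CPM or more (42 to 55, 45 as reported) and of classes led by *Atp1b1* (7 to 9, 8 as reported) stayed within 1.5 times. *Fxyd7* was limited by its few UMIs, and the SC/SGC-like class at P14 rested on 27 cells.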

Other observations

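The unnamed P14 clusters carried the pump genes in unequal mixtures. Clusters 1 and 4 (191 and 143 cells) had 950.3 and 1020 CPM of *Atp1b1*, close to the 1009 CPM of the P14 ISC/HeC/OSC-like class. Cluster 8 (77 cells) had 400.2 CPM. Cluster 2 (159 cells) had 187 CPM of *Fxyd2*, from 92 UMIs in 7 cells, and held 55.4% of all *Fxyd2* UMIs of its library, where the IHC-like class held 31.3%. All 4 *Fxyd7* UMIs of the P14 library lay in 3 of the 93 cells of cluster 6.

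Neurons were not uniform in *Atp1b1*. Among the P28 SGN-like clusters it was at 4283 and 4203 CPM in cluster 13, 2570 and 2436 CPM in cluster 19, and 1390 and 2346 CPM in cluster 28. Cluster 29, with 16 cells of replicate 2 led by *Ngfr*, *Gldn* and *Th*, had 452 CPM of *Atp1b1* and 581 CPM of *Fxyd6*.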
